A study of Saccharomyces cerevisiae with 25 samples.

Results

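The genes described here are the autophagy-related genes of budding yeast (Saccharomyces cerevisiae), taken as every gene whose symbol in the platform annotation is ATG followed by digits, on probe sets annotated to 1 gene. They are 36 of the 5656 genes tested, read by 39 probe sets, because ATG15 has 3 sets and ATG19 has 2. For these, the set that was brightest on average stands for the gene. The rule leaves out VPS30 and SNX4, which are also known as ATG6 and ATG24, and they are treated below as partners. ATG44 is not analysed here.

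Autophagy carries cytoplasm and organelles to the vacuole, the degradative compartment of yeast, inside a vesicle with a double membrane, the autophagosome. The Atg1 kinase complex starts the process, vesicles carrying Atg9 and a phosphatidylinositol 3-kinase build the membrane, and a ubiquitin-like conjugation system attaches Atg8 to its lipid. Cargo receptors tie chosen cargo to Atg8, and vacuolar enzymes break the contents down. In yeast the process is known for its induction when nitrogen or carbon runs short.

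Transcript levels were measured on Affymetrix arrays, 1 array per sample, 25 in all. By their labels, the tested strains each lack 1 gene of the Ccr4-Not complex, which removes poly(A) tails from mRNAs and acts in transcription and in ubiquitination of proteins. They are caf1 (gene POP2), caf130, ccr4, not2 (gene CDC36), not3, not4 (gene MOT2) and not5, all compared with wild type. Cells in glucose-rich medium were collected 30 min after the glucose had run out (called depletion below) or during exponential growth. Depletion samples exist for caf1 (1 array) and for caf130, ccr4, not2, not4 and wild type (2 arrays each), and exponential samples for caf1, caf130, ccr4, not2, not3 and wild type (2 arrays each) and for not4 and not5 (1 array each). The labels give no strain background, mating type or marker, and no value for not5 or not3 after depletion is used here. The 2 samples of a group are independent preparations by the labels, so the tests rest on the scatter between preparations.

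POP2, CDC36, CCR4, NOT3, MOT2 and NOT5 had their lowest levels in the arrays of their own deletion strain, but CAF130 did not. It read 5.92 and 6.60 in exponential arrays labelled caf130, against 5.60 and 5.30 in wild type, and 5.81 and 5.63 after depletion, against 5.68 and 5.76 in wild type. These 4 arrays are therefore called the arrays labelled caf130. TRP1, an auxotrophic marker gene, read 6.73 to 8.89 in caf1 and ccr4 arrays, 7.27 and 7.69 in depletion arrays labelled caf130 and 3.59 and 5.52 in exponential ones, against 2.64 to 3.14 in wild type. The 7 genes of a-type cells were lower in not2, with a median log2 difference of -4.13 in exponential phase and -3.72 after depletion. They also moved in other strains: 5 of the 7 were higher in exponential ccr4 (median 1.71), as were 3 of 4 genes of alpha-type cells (median 2.15), 2 were higher in exponential caf1 and 3 in exponential not3, and after depletion 6 were lower in caf1 (median -1.44) and 4 in not4 (median -1.05). The part of these strain differences in the results on autophagy genes was not tested. The replicate SD over all genes was 0.59 in not4 depletion arrays and 0.57 in not2 depletion arrays, against 0.16 to 0.41 in the other groups of 2. Every difference below is on the log2 scale of the deposited values, with its SE, and a gene was called at a limma adjusted p below 0.05. Fewer mRNA molecules per cell and fewer cells carrying them cannot be told apart in such samples. A level is compared only within a probe set, never between genes.

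**Figure D1:**
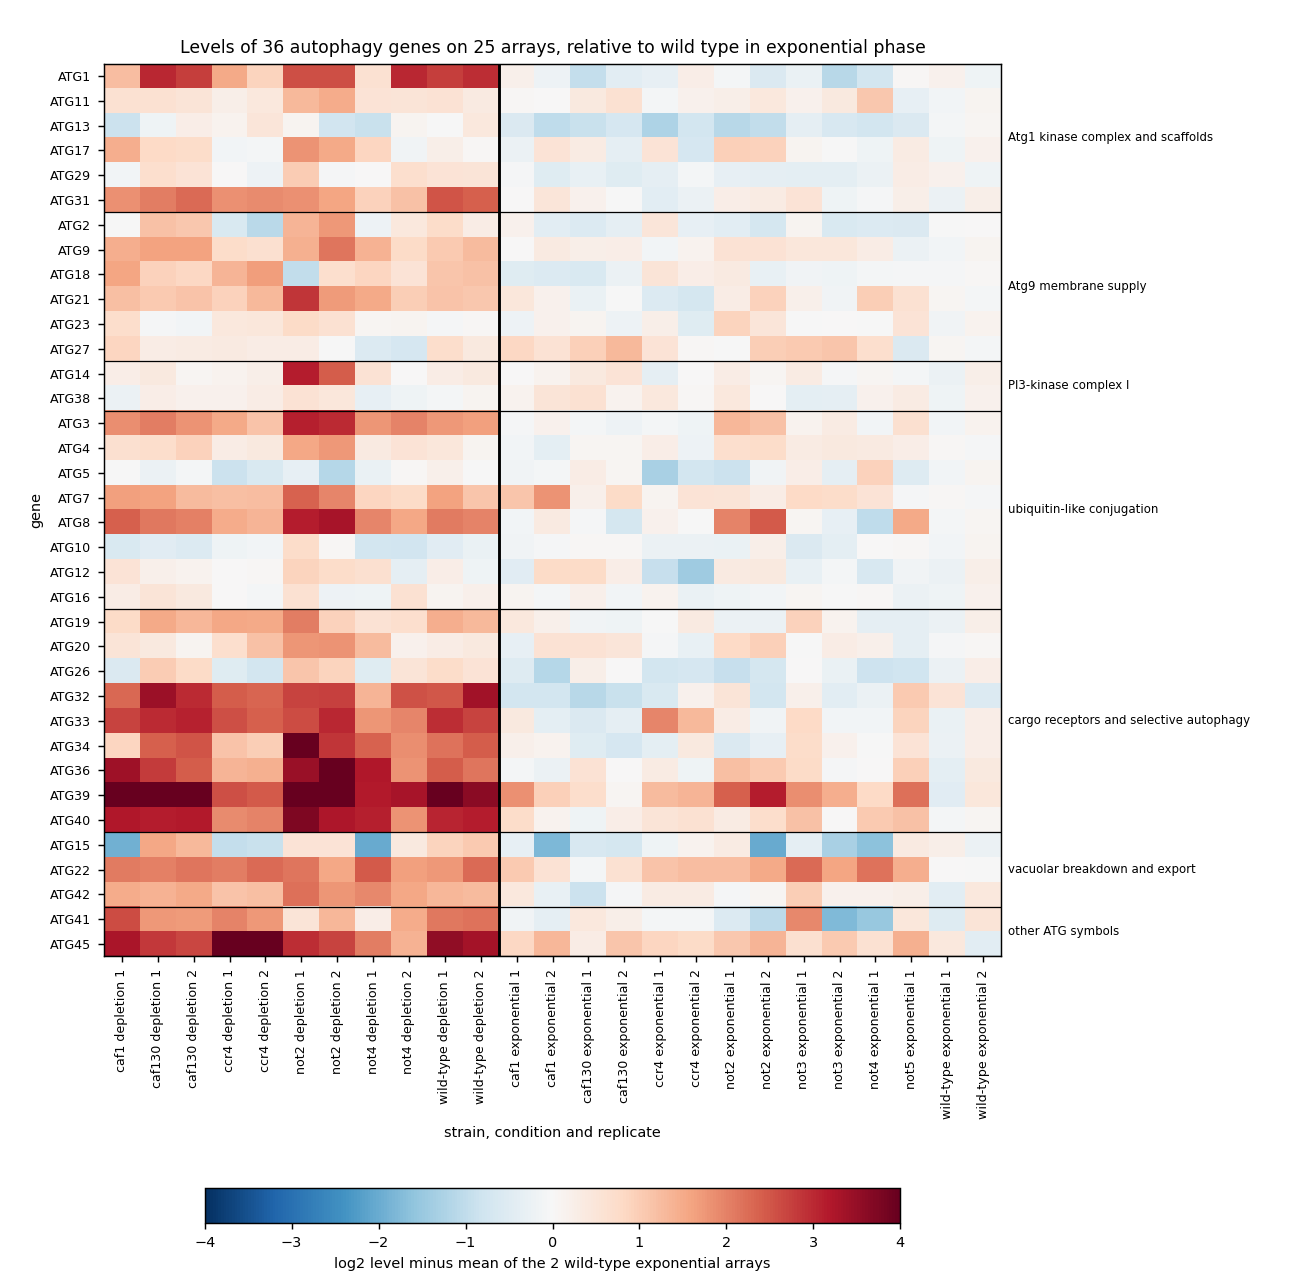
Each row is 1 of the 36 autophagy genes, grouped by role, and each column is 1 array, with depletion arrays on the left and exponential arrays on the right. Colour gives the log2 level minus the mean of the 2 wild-type exponential arrays, saturating at 4 in either direction, and caf130 marks the arrays labelled so. The depletion side is red for most receptors and for ATG1, ATG3, ATG8 and ATG31, and ATG14 is dark red on the not2 depletion arrays alone.

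After glucose depletion, 19 of the 36 genes were higher in wild type than during exponential growth and 0 were lower. Over all genes tested, 20.3% were called higher and 18.7% lower. The median log2 difference was 1.12 over the autophagy genes and 0.02 over all genes, and 34 of the 36 differences were above 0. By role, the calls were 7 of 9 genes for cargo receptors and selective autophagy, 3 of 8 for conjugation, 3 of 6 for membrane supply by Atg9, 2 of 6 for the Atg1 complex and 2 of 3 for vacuolar breakdown. Neither of the 2 genes of phosphatidylinositol 3-kinase complex I was called, while ATG41 and ATG45, which were not placed in a role class here, were both called. Of the 19 calls, 15 were kept under every alternative tried, although ATG9, as a dim gene, has no value in the one that leaves out dim probe sets.

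The greatest difference among the receptors belonged to ATG39, which encodes the receptor that delivers perinuclear endoplasmic reticulum and parts of the nucleus. It read 7.82 and 7.37 after depletion, against 3.31 and 4.20 in exponential wild type, a difference of 3.84 ± 0.35 (SE, n = 2 each) or 14.3-fold (limma adjusted p = 8.45e-08). ATG40, which encodes the receptor for cortical and cytoplasmic endoplasmic reticulum, read 6.72 and 6.81 after depletion, against 3.60 and 3.77. Both depletion arrays of each gene lay far above both exponential arrays, and the difference for ATG40 was 3.08 ± 0.39 (adjusted p = 3.32e-06).

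The mitochondrial genes rose too. ATG32, the receptor on the mitochondrial outer membrane, read 7.29 and 8.17 after depletion, against 5.34 and 4.27 during exponential growth, a difference of 2.93 ± 0.46 (adjusted p = 3.61e-05). ATG33, which encodes another mitochondrial outer-membrane protein that takes part in mitophagy, read 9.77 and 9.51 against 6.55 and 7.09, a difference of 2.82 ± 0.34 (adjusted p = 1.96e-06). The receptor for peroxisomes, ATG36, rose by 2.28 ± 0.41 (adjusted p = 0.000172).

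ATG19 and ATG34 encode related receptors for vacuolar hydrolases that travel in the Cvt pathway, a selective route that uses the same machinery, and they are neighbours in the R64 annotation with 0 genes between them. ATG34 read 7.87 and 8.13 after depletion, against 5.45 and 5.95 in exponential phase, and rose by 2.30 ± 0.38 (adjusted p = 5.88e-05). ATG19 rose by 1.37 ± 0.33 (adjusted p = 0.00236) on its brighter set, with 7.99 and 7.83 against 6.31 and 6.77. Its dimmer set, with a mean of 2.84 over the 25 arrays, gave 0.04 ± 0.26 and was not called, so the 2 sets disagree. The remaining 2 genes of the class were not called: ATG20, a sorting nexin of the Cvt pathway, gave 0.34 and ATG26, a sterol glucosyltransferase that serves peroxisome autophagy in another yeast (Komagataella phaffii), gave 0.64.

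In the Atg1 complex, the kinase gene and 1 subunit of its scaffold rose. ATG1 read 6.35 and 6.52 after depletion, against 3.73 and 3.41, a difference of 2.86 ± 0.50 (adjusted p = 0.000122). ATG31, which encodes a subunit of the scaffold that Atg1 joins in starved cells, read 5.74 and 5.63 against 3.01 and 3.45, a difference of 2.45 ± 0.27 (adjusted p = 7.95e-07). The other scaffold subunits, ATG17 and ATG29, gave 0.14 and 0.52 and were not called, and both read below the median of every array. ATG13, the regulatory subunit that links Atg1 to nutrient signalling, gave 0.19 and ATG11, the scaffold of selective autophagy, gave 0.47.

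Among the conjugation genes, the 3 that rose were ATG8 and those of its E1-like and E2-like enzymes. ATG8, the ubiquitin-like protein placed on the membrane, read 9.60 and 9.52 after depletion, against 7.47 and 7.60, a difference of 2.03 ± 0.28 (adjusted p = 8.84e-06). ATG3, the E2-like enzyme that hands Atg8 to its lipid, rose by 1.69 ± 0.26 (adjusted p = 2.45e-05), and ATG7, the E1-like enzyme that serves both Atg8 and Atg12, by 1.36 ± 0.30 (adjusted p = 0.0011). The genes of the second conjugate were not called, with 0.04 for ATG12, 0.08 for ATG5, 0.15 for ATG16 and -0.37 for ATG10, the E2-like enzyme of Atg12. ATG4, the protease that processes Atg8, gave 0.29. ATG4, ATG12 and ATG16 read below the median of every array.

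ATG9, the membrane protein carried by the seed vesicles, rose by 1.15 ± 0.27 (adjusted p = 0.00169). ATG18 and ATG21, which encode proteins that bind phosphatidylinositol 3-phosphate, gave 1.14 ± 0.38 and 1.10 ± 0.34 and were called. Each of the 4 wild-type arrays, left out in turn, ended the ATG18 call (adjusted p from 0.0687 to 0.0996). The ATG21 call ended without either depletion array or exponential replicate 2 (from 0.0548 to 0.0777). ATG2, a lipid-transfer protein, gave 0.52, and ATG23 and ATG27, which move with Atg9, gave -0.01 and 0.55. ATG9 and ATG23 read below the median of every array. For the phosphatidylinositol 3-kinase, ATG14, the subunit that directs the complex to autophagy, gave 0.34 and ATG38, which stabilises it, gave 0.01.

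At the vacuole, ATG22, which encodes an exporter of amino acids, rose by 2.0 ± 0.34 (adjusted p = 9.89e-05), with 7.18 and 7.71 against 5.46 and 5.43. ATG42, a vacuolar carboxypeptidase, rose by 1.29 ± 0.35, a call that ended without exponential replicate 1 (adjusted p = 0.127). ATG15, the lipase that opens the delivered vesicles, gave 0.96 ± 0.65 and was not called on any of its 3 sets, which ran from 0.96 to 1.40. ATG45 read 7.74 and 7.53 after depletion, against 4.61 and 3.78, and rose by 3.44 ± 0.34 (adjusted p = 1.67e-07). ATG41, which is needed for full autophagy, rose by 2.15 ± 0.69 (adjusted p = 0.0175), and that call ended without either depletion array or exponential replicate 1 (from 0.0681 to 0.165).

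**Figure D2:**
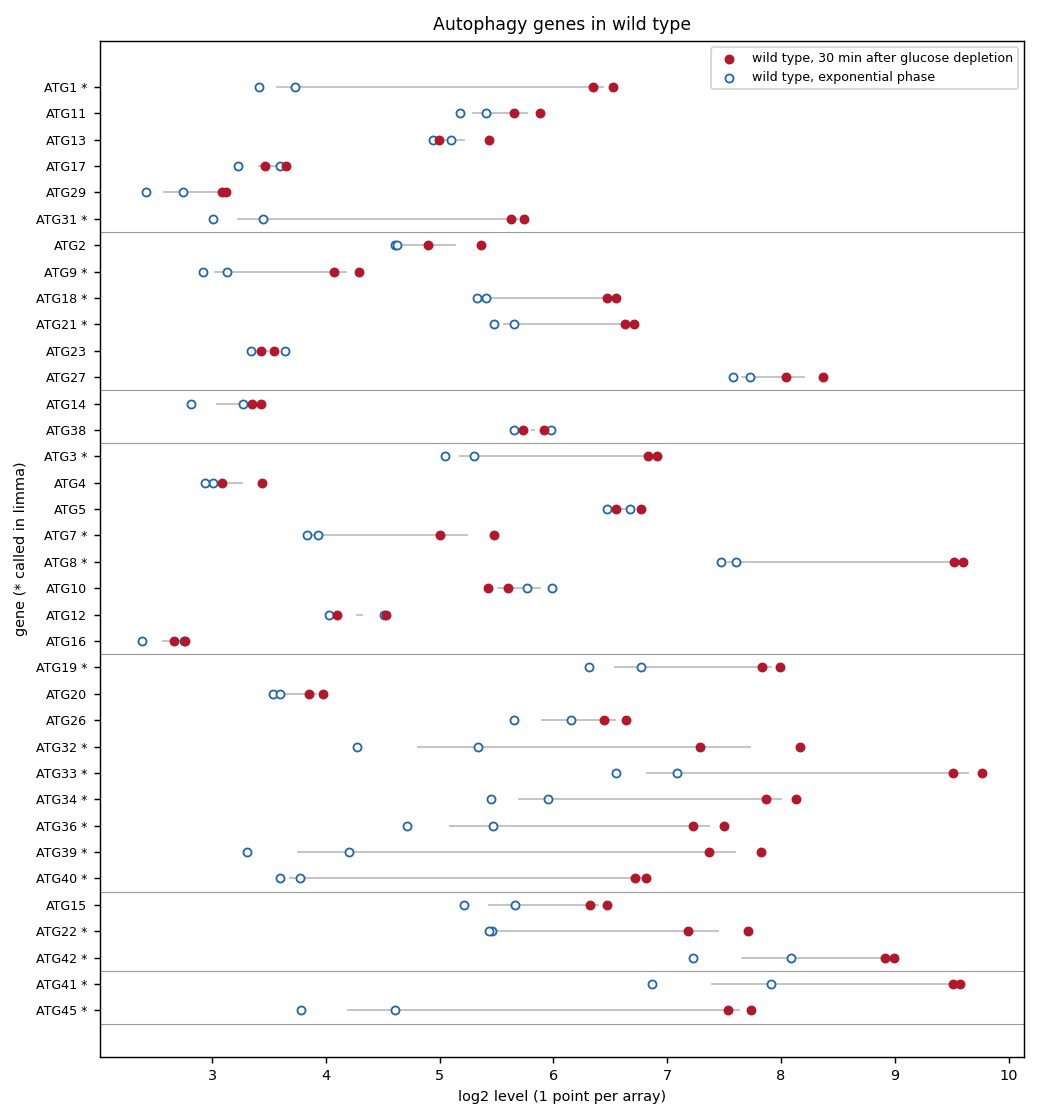
Log2 levels of the 36 genes on the wild-type arrays, 1 point per array, with filled red points for the 2 depletion arrays, open blue points for the 2 exponential arrays and grey lines joining the group means. Stars mark the 19 called genes, whose red points all lie to the right of the blue ones, and the 17 genes without a star moved by -0.37 to 0.96.

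Many of these differences were also present in the 5 other groups with depletion arrays, each measured on arrays of its own. Between depletion and exponential arrays, 16 autophagy genes were higher and 0 lower in caf1 (16.5% of all genes were called higher there and 13.9% lower). The arrays labelled caf130 gave 22 higher and 1 lower (23.2% and 26.9% of all genes). In ccr4, 18 were higher and 1 lower (23.7% and 13.3%), in not2 24 and 0 (19.3% and 25.4%), and in not4 13 and 1 (12.9% and 18.3%). The share called higher thus lay above that of all genes in each of the 6 strains. No alternative tried could leave out the only exponential array of not4 or the only depletion array of caf1. Leaving out 1 array at a time, the calls in ccr4 ran from 7 to 13 against 19 with all arrays, while those in wild type ran from 16 to 17, in caf1 from 12 to 15, in the arrays labelled caf130 from 20 to 22, in not2 from 21 to 26 and in not4 stood at 14.

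**Figure D3:**
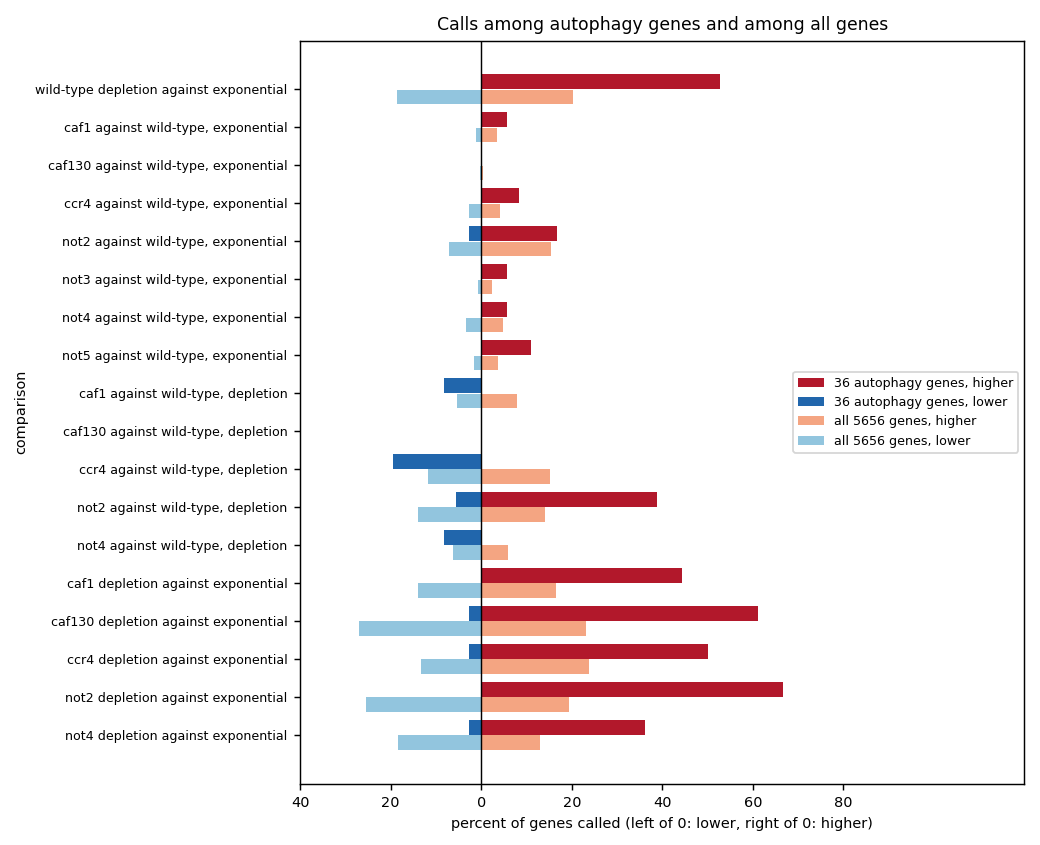
Percent of genes called in 18 comparisons, with dark bars for the 36 autophagy genes and pale bars for all 5656 genes, higher to the right of 0 and lower to the left. The dark bars for depletion against exponential growth reach past the pale ones on the right in every strain, and not2 against wild type after depletion is the strain comparison with the longest dark bar.

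Across wild type, caf1, the arrays labelled caf130, ccr4, not2 and not4, 8 genes were called higher after depletion in all 6: ATG3, ATG8, ATG31, ATG32, ATG36, ATG39, ATG40 and ATG45. ATG3 was the only one of the 8 whose call was kept in all 6 strains under every alternative. Its difference was 1.78 ± 0.31 in caf1, 2.08 ± 0.26 in the arrays labelled caf130, 1.44 ± 0.26 in ccr4, 1.80 ± 0.26 in not2, 1.97 ± 0.31 in not4 and 1.69 ± 0.26 in wild type. The values of ATG3 therefore lay within a narrow span, whereas those of ATG39 ran from 1.22 ± 0.35 in ccr4 to 4.05 ± 0.35 in the arrays labelled caf130. Altogether 30 of the 36 genes were called higher in at least 1 of the 6 strains. Lower calls were made for 2 genes, ATG2 in ccr4 (-0.93 ± 0.34, a call lost without ccr4 exponential replicate 1 or either ccr4 depletion array) and ATG27 in not4 (-1.30 ± 0.37) and in the arrays labelled caf130 (-0.82 ± 0.30, lost without depletion replicate 1 or 2 or exponential replicate 2). These calls rest on the brightest set of each gene. For ATG15 in ccr4 that set gave -0.9 and was not called. Its other sets gave -1.53 ± 0.46, which was called (limma adjusted p = 0.0142), and -0.92 ± 0.65, which was not. ATG5, ATG16 and ATG38 were called in none of the 23 comparisons, and their levels spanned 2.23, 0.88 and 0.99 over the 25 arrays. The matching counts over all genes (higher in all 6 strains, higher in at least 1, called in no comparison) were not taken.

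ATG1 was called in 4 of these 6 strains. It read 4.79 in caf1 after depletion, against 3.76 and 3.38 in exponential phase, and 5.08 and 4.47 in ccr4, against 3.23 and 3.83, and neither difference was called. In not4 the depletion arrays read 4.17 and 6.60, the first below and the second just above both wild-type depletion arrays (6.35 and 6.52). ATG33 was called in 5 of 6, the exception being ccr4, whose arrays read 9.41 and 9.21 after depletion and 8.78 and 8.13 before it.

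During exponential growth, few autophagy genes differed from wild type. Higher and lower calls numbered 6 and 1 in not2 (15.5% and 7.07% of all genes), 4 and 0 in not5 (3.71% and 1.52%), 3 and 0 in ccr4 (4.10% and 2.67%), 2 and 0 in caf1 (3.39% and 1.06%), 2 and 0 in not3 (2.33% and 0.725%), 2 and 0 in not4 (4.79% and 3.43%) and 0 and 0 in the arrays labelled caf130 (0.389% and 0.283%). In the last of these, 4 of the 36 genes had an unadjusted limma p under 0.05. The 7 comparisons share the 2 wild-type arrays, so a high or low wild-type value touches all of them. With the arrays quantile-normalized, not4 had 1 higher and 1 lower call and ccr4 3 higher and 1 lower.

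In exponential phase, ATG8 and ATG39 were higher on both not2 arrays than on the 12 other arrays. ATG8 read 9.51 and 9.99 in not2, against 7.47 and 7.60 in wild type, a difference of 2.22 ± 0.28 (SE, n = 2 each, limma adjusted p = 2.25e-05). Wild type after depletion read 9.60 and 9.52, close to these exponential not2 levels. ATG39 read 6.14 and 6.88 in not2, against 3.31 and 4.20 in wild type, a difference of 2.75 ± 0.35 (adjusted p = 2.81e-05). ATG3 read 6.49 and 6.36, against 5.05 and 5.30, a difference of 1.25 ± 0.26 (adjusted p = 0.0021). For these 3 genes the groups did not overlap and the call was kept under every alternative.

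The other 4 calls in exponential not2 were weaker. ATG22 read 6.68 and 6.95, against 5.46 and 5.43 (1.37 ± 0.34), and ATG45 read 5.28 and 5.54, against 4.61 and 3.78 (1.21 ± 0.34). ATG4 read 3.64 and 3.72, against 3.01 and 2.94 (0.70 ± 0.23), and ATG13 read 3.92 and 4.04, against 4.94 and 5.10 (-1.04 ± 0.35). ATG13 and ATG4 were lost without any 1 of the 4 arrays (adjusted p from 0.068 to 0.148). ATG22 was lost without not2 replicate 2 or wild-type replicate 1 (0.0807 and 0.0544), and ATG45 without replicate 2 of either strain (0.113 in not2 and 0.179 in wild type).

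ATG39 and ATG22 were the genes called in most strains, 5 of 7 each. For ATG39 these were caf1 (5.57 and 4.72, a difference of 1.39), ccr4 (5.02 and 5.11, 1.30), not2, not3 (5.60 and 5.22, 1.65) and not5 (5.95, 2.19), all against 3.31 and 4.20 in wild type. For ATG22 they were ccr4 (6.59 and 6.68, a difference of 1.19), not2, not3 (7.71 and 7.01, 1.91), not4 (7.62, 2.17) and not5 (6.89, 1.45), all against 5.46 and 5.43. The ATG22 value in not4, from 1 array, was 2.17 ± 0.42. Its call was kept under every alternative, but none of them could leave out that array. The call of ATG39 in not2 was kept under every alternative too. The other calls of both genes ended without wild-type exponential replicate 1, with adjusted p from 0.0544 to 0.325. The calls in caf1 and not3 also ended without replicate 1 of the strain, those in ccr4 without either ccr4 array and ATG22 in not2 without not2 replicate 2. ATG22 in ccr4 and not5 was lost without wild-type replicate 2 as well (0.172 and 0.126).

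Other exponential calls were made in 1 or 2 strains only. ATG8 and ATG45 were called in not5, from 1 array, with 9.06 against 7.47 and 7.60 (1.53 ± 0.34, lost without wild-type replicate 1, adjusted p = 0.0823) and 5.61 against 4.61 and 3.78 (1.42 ± 0.41, lost without wild-type replicate 2, 0.26). ATG7 read 5.0 and 5.67 in caf1, against 3.93 and 3.83 (1.45 ± 0.30), and was lost without caf1 replicate 2 or either wild-type array (from 0.0603 to 0.193). ATG33 read 8.78 and 8.13 in ccr4, against 6.55 and 7.09 (1.63 ± 0.34), and was lost without replicate 1 of ccr4 or of wild type (0.151 and 0.0986). ATG11 read 6.38 in not4, against 5.18 and 5.41 (1.09 ± 0.31), and was lost without either wild-type array (0.145 and 0.081). ATG8 in not4 read 6.52, below both wild-type arrays, and was called lower under quantile normalization only. The same holds for ATG12 in ccr4, which read 3.34 and 2.85, against 4.03 and 4.51. ATG13 in ccr4 (-0.99 ± 0.35) was called lower only with the spread of the arrays concerned. ATG41 read 9.31 and 5.62 on the 2 exponential not3 arrays, a gap wider than that between the wild-type conditions, and was not called there.

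**Figure D4:**
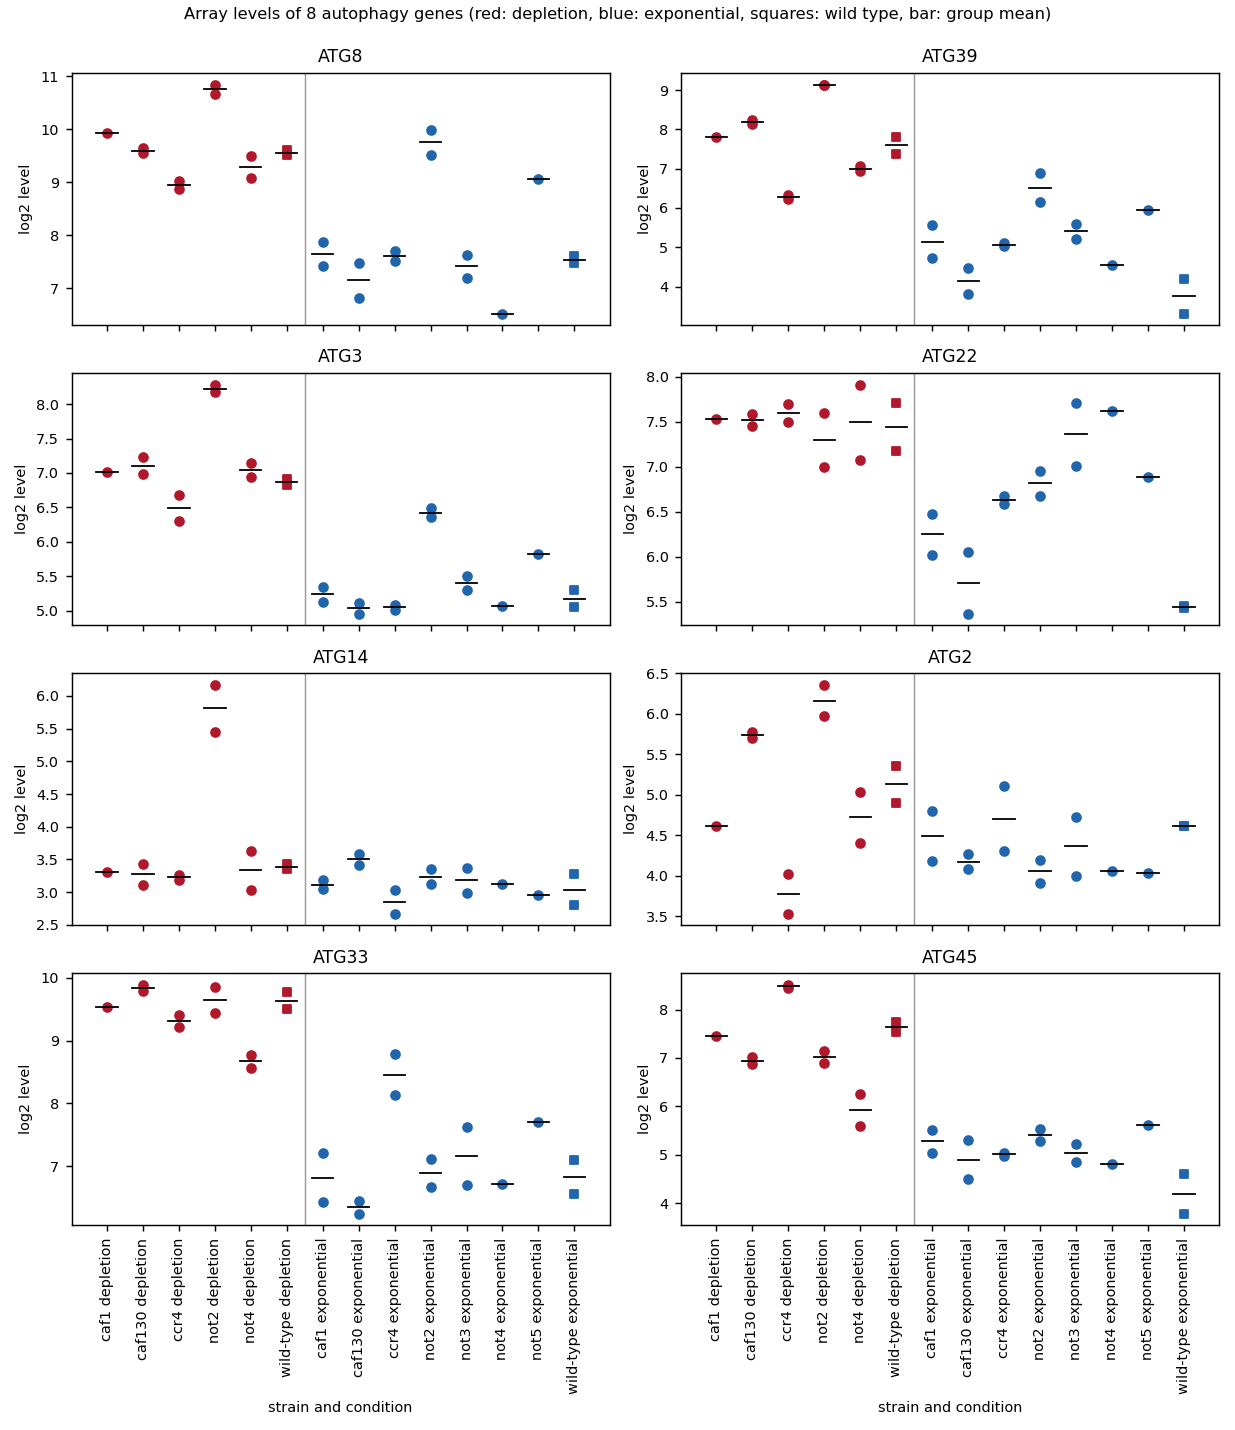
Array levels of ATG8, ATG39, ATG3, ATG22, ATG14, ATG2, ATG33 and ATG45 on the log2 scale in 14 groups, 1 point per array, with red for depletion, blue for exponential growth, squares for wild type, bars for group means and caf130 for the arrays labelled so. ATG14 reads 6.17 and 5.45 in not2 after depletion and 2.67 to 3.63 on the other 23 arrays, and exponential not2 arrays of ATG8 lie beside the depletion arrays.

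After depletion, the not2 strain had 14 autophagy genes higher and 2 lower than wild type. Among all genes, 28.0% were called, 794 higher and 792 lower, against 16 of the 36 here. The median difference was 0.57 over the autophagy genes and 0.01 over all genes. The calls fell on 4 of 8 conjugation genes, 4 of 9 receptor genes, 3 higher and 1 lower of 6 membrane-supply genes, 2 higher and 1 lower of 6 Atg1-complex genes and 1 of 2 kinase genes, with 0 of 3 vacuolar genes. Without not2 replicate 1, not2 replicate 2, wild-type replicate 1 and wild-type replicate 2, the calls numbered 13, 13, 10 and 6, against 16 with all arrays.

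ATG14 differed most. It read 6.17 and 5.45 in not2, against 3.35 and 3.43 in wild type, a difference of 2.42 ± 0.28 (SE, n = 2 each, limma adjusted p = 3.81e-06). On the other 23 arrays, exponential not2 included, it lay between 2.67 and 3.63. These levels were low: on 22 of the 25 arrays ATG14 read below the lower quartile of the array. VPS30, the core subunit that ATG14 joins in the kinase complex, was also higher in not2 after depletion, by 1.64 ± 0.30 (adjusted p = 0.000448).

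Of the genes acting on Atg8, ATG8, ATG3 and ATG4 were higher in not2 as well, and ATG7 was not called (0.80 ± 0.30, limma adjusted p = 0.0506). ATG8 read 10.66 and 10.84, against 9.60 and 9.52, a difference of 1.18 ± 0.28 (adjusted p = 0.00367). ATG3 read 8.28 and 8.17, against 6.91 and 6.83 (1.36 ± 0.26, adjusted p = 0.000592), and ATG4 read 4.52 and 4.72, against 3.44 and 3.09 (1.36 ± 0.23, adjusted p = 0.000192). For all 3 genes both not2 arrays stood above both wild-type arrays, and the calls were kept under every alternative, except that ATG4 has no value where dim probe sets were left out. ATG20 (5.33 and 5.37, against 3.85 and 3.97) and ATG17 (5.20 and 4.92, against 3.65 and 3.46) were kept likewise, ATG17 also without a value where dim sets were left out, with differences of 1.44 ± 0.33 and 1.50 ± 0.37.

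ATG39 read 9.14 and 9.14 in not2, against 7.82 and 7.37 in wild type, a difference of 1.54 ± 0.35. ATG36 read 8.53 and 9.30, against 7.50 and 7.23, a difference of 1.55 ± 0.41. Both calls ended without wild-type replicate 2 (adjusted p = 0.0516 for ATG39 and 0.0747 for ATG36), and that of ATG36 also without not2 replicate 2 (0.0837). ATG34 (1.26), ATG21 (1.17), ATG2 (1.04), ATG11 (0.91), ATG10 (0.75) and ATG23 (0.70) were called higher, and ATG18 (-1.28) and ATG31 (-0.75) lower. All 8 of these calls ended without wild-type replicate 2 (adjusted p from 0.0571 to 0.22). Those of ATG18, ATG31, ATG23, ATG10, ATG21 and ATG34 also ended without wild-type replicate 1, those of ATG18, ATG23, ATG10, ATG21 and ATG34 without not2 replicate 1, and those of ATG31, ATG23 and ATG2 without not2 replicate 2. For ATG18 the not2 arrays read 4.40 and 6.05, and without replicate 1 its adjusted p was 0.302.

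The ccr4 strain went the other way after depletion. Of the autophagy genes 0 were higher and 7 lower than in wild type, while 15.2% of all genes were called higher and 11.8% lower. The median difference was -0.22 over the autophagy genes and 0.06 over all genes. The lower calls fell on 4 of 9 receptor genes and on 1 gene each of the Atg1 complex, membrane supply and vacuolar breakdown. Without ccr4 replicate 2 or wild-type replicate 1 no call was left, and 4 and 3 were left without ccr4 replicate 1 and wild-type replicate 2.

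ATG15 read 4.49 and 4.55 in ccr4, against 6.32 and 6.47 in wild type, a difference of -1.88 ± 0.65 (SE, n = 2 each, limma adjusted p = 0.0363). In a separate fit of all probe sets annotated to 1 gene, its other 2 sets gave -2.77 ± 0.46 and -2.59 ± 0.65 (limma adjusted p = 0.000417 and 0.00789). The brightest set had an adjusted p of 0.0465 in that fit, and the 3 sets had 1 direction. ATG1 read 5.08 and 4.47, against 6.35 and 6.52, a difference of -1.65 ± 0.50 (adjusted p = 0.0194). ATG2 read 4.02 and 3.53, against 5.36 and 4.90 (-1.36 ± 0.34, adjusted p = 0.00685), and was below its exponential ccr4 arrays, which read 5.11 and 4.30.

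Among the receptors, ATG39 read 6.34 and 6.22 in ccr4, against 7.82 and 7.37 (-1.32 ± 0.35, adjusted p = 0.00989), and ATG40 read 5.56 and 5.66, against 6.72 and 6.81 (-1.15 ± 0.39, adjusted p = 0.0343). ATG26 read 5.43 and 5.15, against 6.64 and 6.44 (-1.25 ± 0.32, adjusted p = 0.0077), and ATG34 read 6.84 and 6.68, against 7.87 and 8.13 (-1.24 ± 0.38, adjusted p = 0.0195). In all of these 7 genes the ccr4 arrays lay below both wild-type arrays. ATG45, in contrast, read 8.45 and 8.51 in ccr4, against 7.74 and 7.53, a difference of 0.85 that was not called.

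ATG2, ATG34 and ATG39 were called higher in not2 and lower in ccr4. Both comparisons use the same wild-type arrays, and a direct difference between not2 and ccr4 was not tested. The arrays themselves read 5.97 and 6.36 in not2 and 4.02 and 3.53 in ccr4 for ATG2, 9.95 and 8.57 and 6.84 and 6.68 for ATG34, and 9.14 and 9.14 and 6.34 and 6.22 for ATG39. The 3 genes were picked by their calls against wild type, so the lack of overlap between the 2 strains adds no further test.

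**Figure D5:**
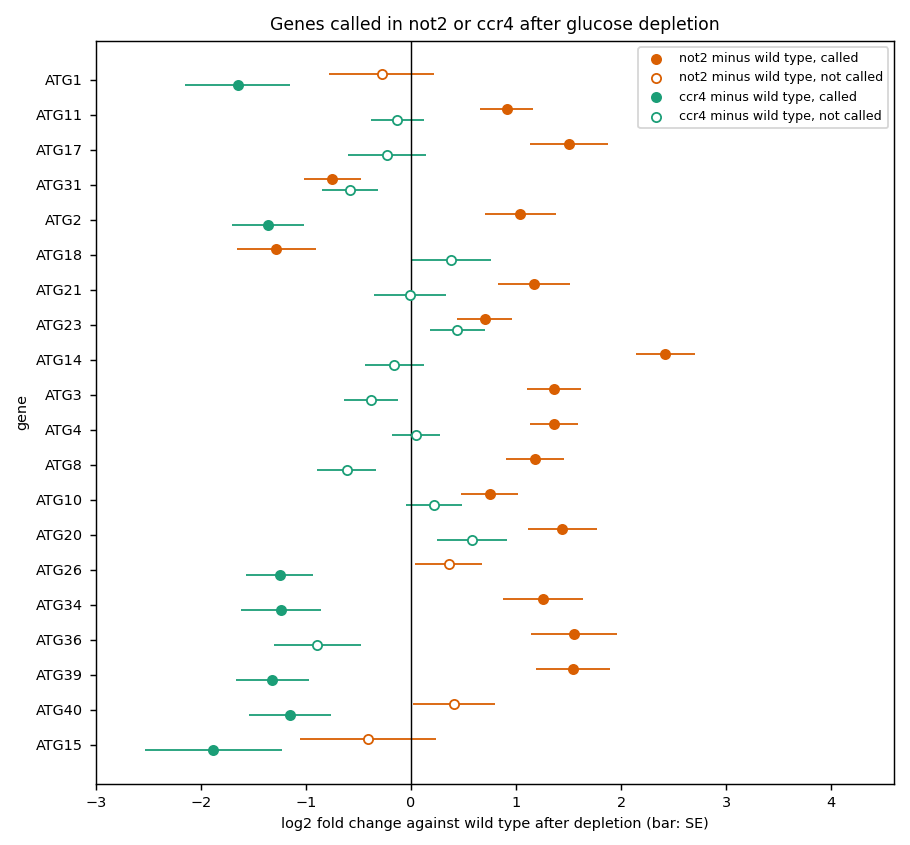
Log2 differences from wild type after depletion, with SE bars, for the 20 autophagy genes called in not2 (orange) or ccr4 (green), filled where called. ATG14 stands at 2.42 in not2 and near 0 in ccr4, and ATG2, ATG34 and ATG39 lie to the right of 0 in not2 and to the left in ccr4.

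In not4 after depletion, 0 autophagy genes were higher and 3 lower than in wild type (5.92% and 6.22% of all genes). ATG31 read 4.15 and 4.39, against 5.74 and 5.63, a difference of -1.41 ± 0.27 (SE, n = 2 each, limma adjusted p = 0.00215). ATG45 read 6.25 and 5.60, against 7.74 and 7.53, a difference of -1.71 ± 0.34 (adjusted p = 0.00235). These 2 calls were kept under every alternative. ATG27 read 7.10 and 6.98, against 8.37 and 8.04 (-1.16 ± 0.30), and was lost without either wild-type array (adjusted p = 0.144 and 0.0576). Between the not4 replicates 7 of the 36 genes differed by more than 1, among them ATG1 at 4.17 and 6.60 and ATG15 at 3.43 and 5.82, and without replicate 2 the calls numbered 8. The brightest set of ATG15 gave -1.77 and was not called. Its other sets gave -2.15 ± 0.65, which was called (limma adjusted p = 0.04), and -0.94 ± 0.46, which was not.

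The 1 caf1 depletion array gave 0 higher and 3 lower calls against wild type (8.03% and 5.36% of all genes), with its spread borrowed from the other groups. ATG15 read 3.50, against 6.32 and 6.47 (-2.89 ± 0.79, adjusted p = 0.023), ATG34 read 6.55, against 7.87 and 8.13 (-1.45 ± 0.46, adjusted p = 0.0427), and ATG26 read 5.32, against 6.64 and 6.44 (-1.22 ± 0.39, adjusted p = 0.0459). Each call ended without either wild-type array (from 0.0613 to 0.201). The other 2 sets of ATG15 gave -1.52, not called, and -3.60. Depletion arrays labelled caf130 gave 0 calls among the autophagy genes (1 at an unadjusted p under 0.05), and limma called 0.0354% of all genes there, 2 in number. The differences of the 36 genes from wild type ran from -0.69 to 0.63.

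Whether a strain changed its response to depletion was tested as the difference between its response and that of wild type. In ccr4, 0 genes had a greater and 4 a smaller response (11.6% and 7.78% of all genes). ATG15 was not among the 4, as its brightest set gave -1.86 and was not called. Its other sets gave -2.68 ± 0.65 (limma adjusted p = 0.01) and -2.32 ± 0.91 (0.0868). With the mean of a gene's sets, the smaller responses called numbered 5. ATG39 rose by 1.22 in ccr4, against 3.84 in wild type, a difference of -2.63 ± 0.50 (limma adjusted p = 0.00205) that was kept under every alternative. ATG33 gave -1.97 ± 0.48 (adjusted p = 0.00884), with exponential ccr4 arrays of 8.78 and 8.13 already above the 6.55 and 7.09 of wild type. ATG40 gave -1.72 ± 0.55 (adjusted p = 0.0345) and ATG2 gave -1.46 ± 0.48 (adjusted p = 0.0395). The ATG33 call was lost without exponential replicate 1 of ccr4 or of wild type (0.0589 and 0.0532), that of ATG40 without any 1 of the 8 arrays (from 0.0589 to 0.104) and that of ATG2 without ccr4 exponential replicate 1, ccr4 depletion replicate 2 or any wild-type array (from 0.054 to 0.195).

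In not2, 1 gene had a greater and 1 a smaller response (2.39% and 4.54% of all genes). ATG14 rose by 2.57 in not2, against 0.34 in wild type, a difference of 2.23 ± 0.39 (adjusted p = 0.00168) that was kept under every alternative. Outside not2 depletion its levels were low, as given above. ATG45 rose by 1.61, against 3.44, a difference of -1.83 ± 0.47 (adjusted p = 0.0246), and was lost without not2 exponential replicate 2, wild-type exponential replicate 2 or either wild-type depletion array (from 0.0596 to 0.141). ATG8 rose by 0.99 in not2, against 2.03, and the difference of -1.03 ± 0.40 was not called (adjusted p = 0.116).

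In not4, 0 genes had a greater and 3 a smaller response (1.79% and 2.39% of all genes), from 1 exponential array. These were ATG45 (1.11 in not4, against 3.44, a difference of -2.33 ± 0.53), ATG22 (-0.13 in not4, against 2.0, a difference of -2.13 ± 0.54) and ATG27 (-1.30 in not4, against 0.55, a difference of -1.85 ± 0.47). ATG22 read 7.91 and 7.08 after depletion and 7.62 before it in not4, and wild type after depletion read 7.18 and 7.71. Each call was lost without either wild-type depletion array or wild-type exponential replicate 2, those of ATG22 and ATG27 also without wild-type exponential replicate 1 and that of ATG22 without not4 depletion replicate 2 (adjusted p from 0.0507 to 0.127). For caf1 and the arrays labelled caf130, limma called 0 differences of response among the 36 genes (2.37% and 0.0354% of all genes either way), with 4 and 3 at an unadjusted p under 0.05.

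Genes around the autophagy genes were read from 4 lists. In wild type after depletion, 6 of 10 vacuolar hydrolases and Cvt cargo genes were higher and 0 lower than in exponential phase, with a median of 1.24, where 20.3% of all genes were called higher and 18.7% lower. AMS1, the alpha-mannosidase that Atg19 and Atg34 carry, rose by 4.08 ± 0.43, and APE1, the aminopeptidase that Atg19 carries, by 2.59 ± 0.41. The vacuolar proteinase B gene PRB1 rose by 2.38 ± 0.43 and the phosphatase gene PHO8 by 1.53 ± 0.29. Of 15 partners without an ATG symbol, 3 were higher and 0 lower, with VPS34, the lipid kinase itself, at 1.30 ± 0.27 and VPS30 not called. The other partner calls, CUE5 and DNM1, and the DAP2 call among the hydrolases ended without some single arrays. Of 19 genes of the TORC1, SEACIT and protein kinase A pathways, which restrain autophagy or act on that restraint, 2 were higher and 2 lower, below the shares over all genes in both directions. BCY1, the inhibitory subunit of protein kinase A, rose by 1.67 ± 0.35, while RAS2, which activates that pathway, gave -1.13 ± 0.32, a call lost without replicate 2 of either condition. The other calls of this list, the protein kinase A genes TPK2 and TPK3, went in opposite directions. Both were lost when some single arrays were left out.

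Of 16 regulators of autophagy gene transcription or mRNA, 4 were higher and 3 lower in wild type after depletion, close to the 20.3% and 18.7% of all genes. GAT1, a transcription activator of nitrogen-starved cells, rose by 2.61 ± 0.57, and XRN1, the exonuclease that degrades decapped mRNA, gave -1.26 ± 0.33. The other calls of this list, MSN2, MSN4, RIM15, RPH1 and SPT10, each ended without some single arrays. In not2 after depletion, 6 of 15 partners were higher and 0 lower than in wild type, where 28.0% of all genes were called either way, with VAC8, a vacuolar membrane protein that anchors the assembly site, at 1.84 ± 0.34 and VAM3, a vacuolar fusion protein, at 1.56 ± 0.33. The calls of CUE5, SNX4 and VPS13 in not2 after depletion ended without some single arrays. RAS2 was higher there by 1.68 ± 0.32 and PHO23, a subunit of a histone deacetylase complex known to restrain ATG9, by 1.85 ± 0.30. In ccr4 after depletion, 4 of 10 hydrolase and cargo genes were lower and 0 higher than in wild type, where 11.8% of all genes were called lower and 15.2% higher. Leaving out some single arrays ended the calls of APE3 (limma adjusted p from 0.0587 to 0.121), CPS1 (0.105 to 0.119) and PRB1 (0.0999 to 0.219). APE1 gave -1.91 ± 0.41, and VPS13, a lipid-transfer protein related to Atg2, gave -2.03 ± 0.37. The AMS1 response in ccr4 minus that in wild type was -3.59 ± 0.61 (limma adjusted p = 0.000954).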

How the data were processed

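Total RNA was labelled with biotin and hybridised to Affymetrix yeast arrays, per the labels' protocols. The authors deposited 1 table of log2 values, with 25 arrays and 9275 probe sets. For its software, background correction and normalization nothing is stated (not given in the sources used here), and the log base was inferred from the range of 1.36 to 13.94. Array medians ran from 5.20 to 5.37, no value was missing, and the values were used as deposited. Columns were matched to samples and groups through the sample titles. The labels give no batch, and 3 problematic arrays were discarded by the authors, per the labels.

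Probe sets were named by the platform annotation, with symbols updated by Entrez number to R64: 6504 had 1 symbol, 328 several and 2443 none. For 315 genes with several sets the set with the highest mean was taken. A model of group means over the 25 arrays was run in limma 3.58.1 under R 4.3.3, with eBayes moderation along an intensity trend (residual df 11, prior df 9.03), with Benjamini-Hochberg adjustment over 5656 genes within each of 23 comparisons, called at 0.05. Groups of 1 array borrow their spread. The other sets of ATG15 and ATG19 come from the same model, fitted to all 6504 sets with 1 symbol and adjusted over these. No filter on low values was used, so all 36 genes were tested. The number of arrays limits the precision, and 2 members (ATG16 and ATG29) lay below the lower quartile of every array. Counting these 2, 7 members lay below the median of every array (ATG4, ATG9, ATG12, ATG16, ATG17, ATG23 and ATG29). The fit was tested on simulated data.

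Every member is accounted for by role. Array values are given for up to 8 called members with the greatest change per comparison, with the responses within the other strains given by counts and examples, and related lists by up to 4 called genes. Members and lists were chosen with earlier results of these data known. Alternatives were quantile normalization, the mean of a gene's sets, dim sets left out, no trend and the spread of the arrays concerned only. Others were a replicate block and leaving out each array of the groups with several arrays. Leaving out the arrays labelled caf130 was chosen after seeing the data. Tables were built with pandas 2.3.3 and numpy 2.4.6 under Python 3.11.15, and figures drawn with matplotlib 3.10.9.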

Additional observations from a re-analysis of the deposited data

Results flagged for a closer look

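In these 9 cases the response to glucose depletion in a deletion strain differed from that of wild type in a limma test of the difference itself. All wild-type responses here come from the same 4 arrays. In ccr4, the log2 differences of response were -2.63 for ATG39, -1.97 for ATG33, -1.72 for ATG40 and -1.46 for ATG2. In not2, they were 2.23 for ATG14 and -1.83 for ATG45. In not4, which has 1 exponential array, they were -2.33 for ATG45, -2.13 for ATG22 and -1.85 for ATG27. The calls of ATG39 in ccr4 and ATG14 in not2 were kept when any 1 array was left out, and each of the other 7 was lost without at least 1 of the wild-type arrays. ATG45 differed in both not2 and not4, and the 2 comparisons share the wild-type response of 3.44. ATG15 is not among these cases on its brightest set, but another of its sets gave -2.68 in ccr4 and was called. What accounts for these differences was not tested.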

How the results depend on the processing

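Of 173 calls of autophagy genes over the 23 comparisons, 93 were kept under every alternative that held the gene (8 of these belong to genes with no value where dim sets were left out), 80 were lost under at least 1, 79 of them without 1 array, and 0 turned direction. The cause was not tested. Left out in turn, single arrays gave 16 to 17 called genes for wild type (19 with all arrays). In exponential phase against wild type they gave 0 to 1 for caf1 (2), 0 to 0 for the arrays labelled caf130 (0), 0 to 2 for ccr4 (3), 3 to 7 for not2 (7), 0 to 3 for not3 (2), 1 to 1 for not4 (2) and 1 to 2 for not5 (4). After depletion they gave 0 to 0 for caf1 (3), 0 to 0 for the arrays labelled caf130 (0), 0 to 4 for ccr4 (7), 6 to 13 for not2 (16) and 2 to 8 for not4 (3). Responses gave 12 to 15 for caf1 (16), 20 to 22 for the arrays labelled caf130 (23), 7 to 13 for ccr4 (19), 21 to 26 for not2 (24) and 14 to 14 for not4 (14). The genes called in not4 changed though their number did not, and 9 of its calls were kept under every alternative. Differences of response gave 0 to 0 for caf1 and for the arrays labelled caf130 (0 each), 1 to 3 for ccr4 (4), 1 to 4 for not2 (2) and 0 to 4 for not4 (3). Without the arrays labelled caf130, which leaves fewer arrays for the spread, the calls fell to 1 for caf1, 1 for ccr4, 1 for not4 and 2 for not5 in exponential phase, to 1 for caf1 after depletion, and to 2 for ccr4 and 1 for not4 in the difference of response. With the spread of the arrays concerned only, they fell to 1 for caf1 and 4 for ccr4 after depletion. Quantile normalization gave 1 higher and 1 lower in exponential not4 (2 and 0 otherwise) and 3 and 1 in exponential ccr4 (3 and 0). Leaving out dim sets removed 7 members and left 29. Replicate numbers gave no common direction across groups. Over 55 pairs of groups the correlation of same-numbered deviations ran from -0.55 to 0.47, with 14 over 0.1 and 20 under -0.1. Numbers may be arbitrary within a group, so these signs cannot show whether groups shared a batch, which was not tested. With the replicate number as a block, the calls were 19 for wild type, 2, 0, 2, 7 and 2 for caf1, the arrays labelled caf130, ccr4, not2 and not3 in exponential phase, and 0, 7, 13 and 3 for the arrays labelled caf130, ccr4, not2 and not4 after depletion. Responses then gave 23 for the arrays labelled caf130, 19 for ccr4 and 23 for not2, and differences of response 0, 4 and 2. Groups with 1 array and no number had no block value, and their arrays were never left out in turn.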
